A study of Mus musculus with 4 samples.

Results

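The 41 genes described here encode the proteins that choose splice sites: SR proteins, the related Tra2 proteins, the heterogeneous nuclear ribonucleoproteins (hnRNPs), proteins bound to the U1 and U2 particles of the spliceosome, and 2 kinases that phosphorylate SR proteins. They were chosen by name, and 40 of the 41 were found among the 13448 Ensembl genes of the isoform table; Hnrnpa0 is not analysed here. The 40 genes are 10 SR proteins, 2 SR-like proteins, 19 hnRNPs, 7 U1- or U2-associated proteins and 2 kinases, and together they have 190 isoforms. The table gives counts per isoform in 6 retinal cell classes: amacrine cells, bipolar cells, cones, Müller glia, rods and retinal ganglion cells.

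The retinas came from male wild-type C57BL6/J mice and were dissociated with papain into 4 single-cell libraries. Of these, 2 had no enrichment, 1 from postnatal day 40 and the other with no age in the labels. The library with CD73 enrichment came from postnatal week 8 and the library with CD90.2 enrichment from postnatal month 4. Photoreceptors carry CD73 on their surface and many neurons carry CD90.2. For CD73 the protocol describes removal of the labelled cells and for CD90.2 their capture, both on magnetic beads, where the design text names FACS. The 10x cDNA was read on a nanopore instrument, so that a read can span a whole transcript. Whether the counts are reads or molecules is not given in the sources used here. The columns name no library, so each class is 1 sample, cell class and library cannot be told apart, and no difference between classes was tested. Intervals are exact 95% intervals of the counts, treat each count as independent and cover counting error only. In each column a lower level can come from fewer transcripts per cell or from a different mix of cells, and these cannot be told apart.

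SR proteins bind exonic enhancers through RNA recognition motifs and recruit the spliceosome through domains rich in arginine and serine, while many hnRNPs bind silencers and oppose them. Several of these genes hold a poison exon, an exon that brings in an early stop codon and sends the mRNA to nonsense-mediated decay when it is included. By binding their own transcripts, SR proteins and hnRNPs can hold their own amount in check. Photoreceptors, the rods and cones, splice many transcripts in their own way, including short exons used in few other cells.

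The column totals ran from 3509890 counts in ganglion cells to 55437340 in rods, and the 3 counts that a count of 0 still allows are 0.855 counts per 1000000 (CPM) in the former and 0.0541 CPM in the latter. Of 36 marker genes of the 6 classes, 35 were highest in their own class. The summed level of the 6 rod markers was 30261 CPM in rods, 6194 CPM in cones, 2072 CPM in Müller glia and 191 to 571 CPM in bipolar and amacrine cells, and all 6 were at 0 in ganglion cells. The Müller glia column also held 8501 CPM of the 2 pigment epithelium markers, 1217 CPM of the 4 microglial markers and 253 CPM of the 2 pericyte markers, which reached at most 58.4, 560 and 11.9 CPM in the other columns. The part of these cells in the values below was not tested. Of the 40 genes, 22 had fewer than 100 counts in ganglion cells. Many of these genes also have near-identical processed copies in the genome, and how counts were divided between copies is not given in the sources used here.

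As a group the splicing factors were most abundant in rods and least in ganglion cells. Their summed level was 4500 CPM in rods, 3091 in cones, 3685 in bipolar cells, 3358 in amacrine cells, 2529 in ganglion cells and 2940 in Müller glia. The level in rods was 1.78 times that in ganglion cells (counting interval 1.74 to 1.82). This ratio was 1.64 when the columns were scaled by the median of ratios, which shifted the classes by up to 0.45 on the log2 scale against each other, and 1.59 without Srsf3. Gene by gene, with 1 CPM added, the median log2 ratio of rods to ganglion cells was 0.593 for the 40 genes. Over all genes with at least 100 counts it was nearly the same, 0.545. For rods over Müller glia the medians were 0.628 and 0.283. Rods were the highest class for 14 of the 40 genes, against 26.1% of the 9863 genes with at least 100 counts. Bipolar cells were highest for 10 genes (13.9% of all genes), amacrine cells for 6 (19.6%), ganglion cells for 5 (15%), cones for 3 (8.29%) and Müller glia for 2 (17%). The count for ganglion cells became 2 when the columns were thinned to the smallest total, and that for amacrine cells became 10 without the ganglion cell column. The shares for rods and bipolar cells lay above those of all genes, and the share for Müller glia below. Ganglion cells were the lowest class for 13 genes, against 38.4% of all genes.

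**Figure D1:**
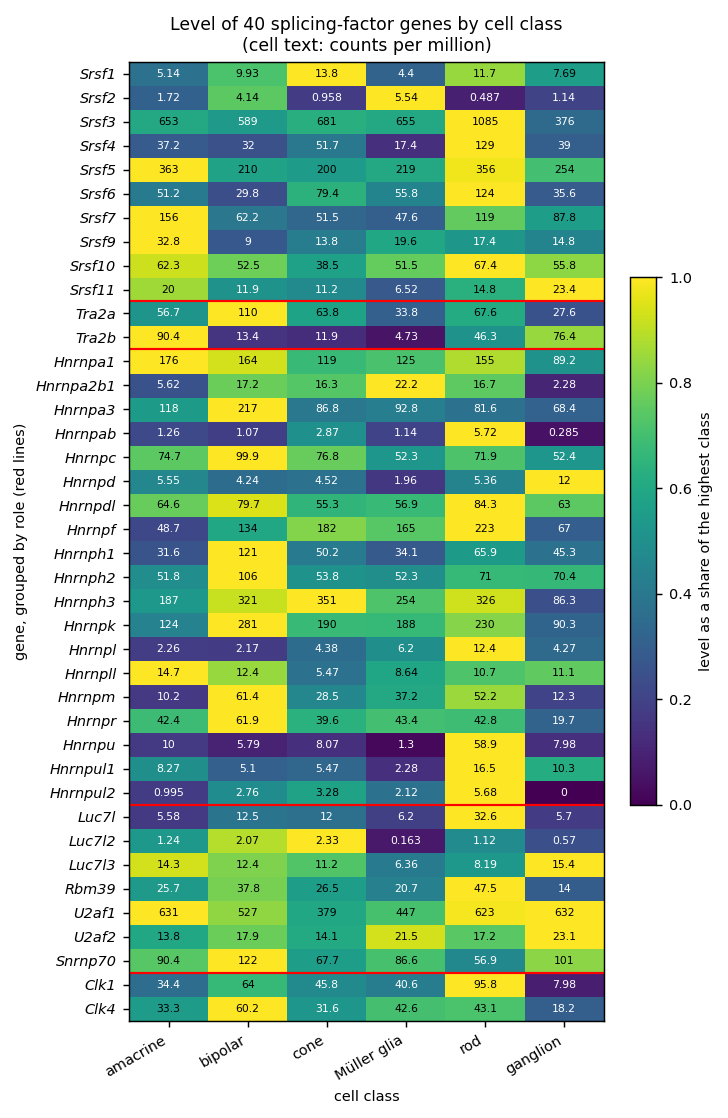
Level of the 40 splicing-factor genes (rows, grouped by role with red lines) in the 6 cell classes (columns), with CPM as text and the colour as a share of the highest class of that gene. Hnrnpu stands at 58.9 in rods and at 10.0 or below in the other 5 classes, and Tra2b at 90.4 and 76.4 in amacrine and ganglion cells against 4.73 in Müller glia.

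The median ratio of the highest to the second class was 1.31, against 1.46 over all genes. Only 5 of the 40 reached a 2-fold ratio, against 29.9% of all genes: Srsf4, Hnrnpu, Luc7l and Hnrnpl in rods and Hnrnpd in ganglion cells. The roles had different peaks. SR proteins summed to 1925 CPM in rods, 1383 in amacrine cells, 1142 in cones, 1083 in Müller glia, 1010 in bipolar cells and 895 in ganglion cells. The hnRNPs instead peaked in bipolar cells at 1697 CPM, followed by 1535 in rods and 1283 in cones, with 977 in amacrine cells, 712 in ganglion cells and 1147 in Müller glia. These peaks and low points of both roles were the same with trimmed-mean (TMM) and median-of-ratios scaling, which gave another highest class for Srsf5 alone and for Srsf5, Hnrnpa1 and U2af2, respectively.

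Among the SR proteins, Srsf3, one of the smallest, supplied most of the counts. It stood at 1085 CPM in rods, 681 in cones, 589 in bipolar cells, 653 in amacrine cells, 376 in ganglion cells and 655 in Müller glia. Srsf4 and Srsf6, both with a pair of RNA recognition motifs, were also highest in rods. Srsf4 was at 129 CPM in rods, 51.7 in cones, 32.0 in bipolar cells, 37.2 in amacrine cells, 39.0 in ganglion cells and 17.4 in Müller glia, 2.49-fold higher in rods than in cones. Srsf6 was at 124 CPM in rods, 79.4 in cones, 29.8 in bipolar cells, 51.2 in amacrine cells, 35.6 in ganglion cells and 55.8 in Müller glia. For both, the interval in rods lay above those of the other 5 classes.

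Srsf7, which takes part in both splicing and RNA export, and Srsf9 were highest in amacrine cells. Srsf7 was at 119 CPM in rods, 51.5 in cones, 62.2 in bipolar cells, 156 in amacrine cells, 87.8 in ganglion cells and 47.6 in Müller glia. Srsf9 was at 17.4 CPM in rods, 13.8 in cones, 9.0 in bipolar cells, 32.8 in amacrine cells, 14.8 in ganglion cells and 19.6 in Müller glia. Srsf5 was alike in rods and amacrine cells and lower in the other classes, with 356 CPM in rods, 200 in cones, 210 in bipolar cells, 363 in amacrine cells, 254 in ganglion cells and 219 in Müller glia. Srsf10, a splicing repressor when dephosphorylated, ranged from 38.5 CPM in cones to 67.4 in rods, with 52.5 in bipolar cells, 62.3 in amacrine cells, 55.8 in ganglion cells and 51.5 in Müller glia. Srsf11 was at 14.8 CPM in rods, 11.2 in cones, 11.9 in bipolar cells, 20.0 in amacrine cells, 23.4 in ganglion cells and 6.52 in Müller glia. Srsf1, the founding member of the family, had 1339 counts and Srsf2 had 275, so that their class values rest on few counts. Srsf1 was at 11.7 CPM in rods, 13.8 in cones, 9.93 in bipolar cells, 5.14 in amacrine cells, 7.69 in ganglion cells and 4.40 in Müller glia. Srsf2 was at 0.487 CPM in rods, 0.958 in cones, 4.14 in bipolar cells, 1.72 in amacrine cells, 1.14 in ganglion cells and 5.54 in Müller glia.

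The Tra2 proteins, which bind purine-rich enhancers, went different ways. Tra2a was highest in bipolar cells, with 110 CPM there, 67.6 in rods, 63.8 in cones, 56.7 in amacrine cells, 27.6 in ganglion cells and 33.8 in Müller glia. Tra2b was at 90.4 CPM in amacrine cells, 76.4 in ganglion cells, 46.3 in rods, 13.4 in bipolar cells, 11.9 in cones and 4.73 in Müller glia. Its span from amacrine cells to Müller glia was 19.1-fold.

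The deposited transcript models show how these messages were cut. A model was called premature when its first in-frame stop, read from the most upstream annotated start codon it held, lay more than 50 nt before the last exon junction, the usual mark of a target of nonsense-mediated decay. A poison exon is then an internal exon that the most abundant coding isoform of the gene (the reference isoform) lacks and that holds that stop or shifts the frame to it. Shares of counts, also where called use of an exon, can reflect both how often an isoform is made and how fast it decays. These cannot be told apart here. Models exist for the isoforms seen at least once in rods, which cover 183 of the 190 isoforms. Of the 40 genes, 26 had a premature isoform, against 25.2% of 12462 modelled genes; among genes with 2 or more modelled isoforms and at least 100 counts this was 26 of 39 against 41.6%. A poison exon was found in 15 of the 40, against 4.48%, and in 15 of 39 against 7.59% in the restricted set. The 15 include U2af1, whose exon is part of a pair that replace each other and is premature only when both are used. They also include Clk4, whose calls depend on the start codon chosen, as given below. Both shares lay above the background.

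Of all counts of these genes, 11.6% were in premature isoforms in rods, 10.6% in cones, 9.56% in bipolar cells, 10.7% in amacrine cells, 10.1% in ganglion cells and 8.75% in Müller glia. The same share over all genes ran from 1.68% in Müller glia to 2.97% in rods. Some premature isoforms keep the stop codon of the reference isoform and have a junction after it. Their protein can still differ, since in Hnrnpa1 an exon can also be skipped. In Hnrnpm the shared stop itself follows the loss of 8 bases, as given below. Counting only the other stops, the shares were 7.80% in rods, 6.70% in cones, 4.89% in bipolar cells, 9.35% in amacrine cells, 9.38% in ganglion cells and 4.77% in Müller glia, against 1.05% (Müller glia) to 2.36% (amacrine cells) over all genes.

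The poison exons of 4 SR genes are printed with their stop codon in capitals, on GRCm38 and in the direction of transcription, each up to 30 bases past the stop, because they are the exons whose use is followed through the classes below. The exon of Srsf3 lies at chr17:29039454-29039909 (plus strand, 456 bases), that of Srsf6 at chr2:162932815-162933082 (plus, 268 bases), that of Srsf7 at chr17:80204622-80205081 (minus, 460 bases) and that of Srsf9 at chr5:115331450-115331539 (plus, 90 bases).
Srsf3: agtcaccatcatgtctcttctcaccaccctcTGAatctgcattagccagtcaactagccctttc
Srsf6: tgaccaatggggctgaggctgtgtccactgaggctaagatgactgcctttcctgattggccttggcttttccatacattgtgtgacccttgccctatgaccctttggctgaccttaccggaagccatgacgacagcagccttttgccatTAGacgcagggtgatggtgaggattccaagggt
Srsf7: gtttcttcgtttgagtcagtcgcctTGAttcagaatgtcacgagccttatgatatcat
Srsf9: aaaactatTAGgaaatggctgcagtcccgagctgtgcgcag

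The poison exon of Srsf3 held a small share of counts that differed between classes. It was in 0.962% of Srsf3 counts in rods, 1.17% in cones, 5.31% in bipolar cells, 2.44% in amacrine cells, 0.228% in ganglion cells and 4.03% in Müller glia. Its use was thus highest in bipolar cells and lowest in ganglion cells, followed by rods and cones at similar values. Ganglion cells had both the lowest level of Srsf3 and the lowest use of the exon.

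Srsf6 showed another order. Its poison exon was in 9.95% of counts in rods, 5.00% in cones, 13.5% in bipolar cells, 29.9% in amacrine cells (interval 28.1 to 31.8%), 12.8% in ganglion cells and 7.02% in Müller glia. Amacrine cells stood clear of the other 5 classes. Without the premature isoform the level of Srsf6 was 35.8 CPM in amacrine cells and 111 CPM in rods.

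Srsf7 transcripts took 2 premature routes through the same intron of 874 bases (chr17:80204388-80205261). One keeps the whole intron and the other splices in the 460-base poison exon that lies inside it. The intron was kept in 31.6% of counts in rods, 20.2% in cones, 11.6% in bipolar cells, 2.32% in amacrine cells, 6.17% in ganglion cells and 8.22% in Müller glia. The exon was used in 4.74% in rods, 12.2% in cones, 11.9% in bipolar cells, 1.42% in amacrine cells, 0.325% in ganglion cells and 15.8% in Müller glia. Rods were therefore highest for the kept intron, and Müller glia, cones and bipolar cells, whose intervals overlap, for the exon. With both routes together, 36.3% of Srsf7 counts in rods and 3.74% in amacrine cells were premature.

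Srsf9 had the widest spread of the SR proteins. A premature isoform held 82.0% of its counts in rods, 95% in cones (interval 88.8 to 98.4%), 70.1% in bipolar cells, 51.5% in amacrine cells, 7.69% of 52 counts in ganglion cells and 22.5% in Müller glia. Most of these counts carried the 90-base exon printed above, whose stop begins at base 9. A 79-base form of the exon starts 11 bases later, past that stop, and shifts the frame. It held 24.8% of counts in cones and 17.7% in rods, and at most 10.7% in the other 4 classes. The isoform without a premature stop was at 3.12 CPM in rods, 0.684 in cones, 2.69 in bipolar cells, 15.9 in amacrine cells, 13.7 in ganglion cells and 15.2 in Müller glia.

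**Figure D2:**
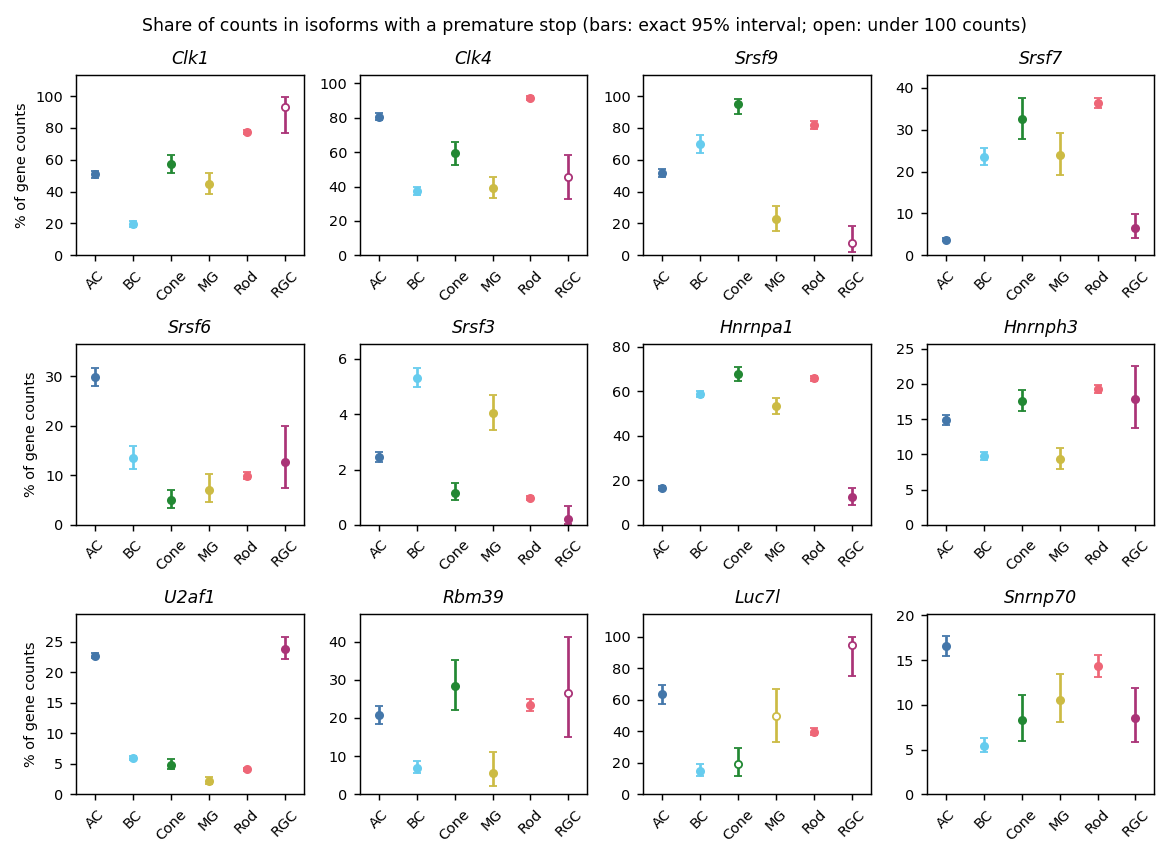
Share of counts in premature isoforms (vertical axis, % of the counts of the gene) in the 6 classes (AC amacrine, BC bipolar, MG Müller glia, RGC ganglion) for 12 genes, with exact 95% intervals as bars and open points under 100 counts. Rods stand highest for Srsf7, at 36.3%, and amacrine cells for Srsf6, at 29.9%.

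Srsf4, Srsf11 and Tra2b also hold poison exons. The 207-base poison exon of Srsf4 was in 0.730% of counts in ganglion cells to 6.61% in cones. The 117-base exon of Srsf11 was in 4.88% in rods, 3.66% in cones, 7.23% in bipolar cells, 11.1% in amacrine cells, 1.22% in ganglion cells and 7.50% in Müller glia. Tra2b, in contrast to its level, used its 276-base poison exon in at most 4.10% of counts. All 3 models of Srsf1 have a junction more than 50 nt after their stop, and the leading one, with 690 of 1339 counts, keeps the annotated stop. A 196-base intron of Srsf1 was kept in 17.0% of counts in rods, 19.8% in cones, 17.7% in bipolar cells, 6.85% in amacrine cells, 0% of 27 counts in ganglion cells and 3.70% in Müller glia.

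In Srsf10 and Srsf5 the classes differed mainly in isoforms that are not premature. Srsf10 isoforms end at different last exons. A last exon of 172 bases (chr4:135867126-135867297), which the reference isoform lacks, was used by 48.0% of counts in rods, 63.3% in cones, 86.3% in bipolar cells, 13.7% in amacrine cells, 50% in ganglion cells and 86.7% in Müller glia. Amacrine cells used mainly other ends, and bipolar cells and Müller glia mainly this one. In Srsf5 a 5′ splice site that shortens the first exon by 127 bases was used by 57.3% of counts in rods, 54.4% in cones, 46.6% in bipolar cells, 27.2% in amacrine cells, 38.3% in ganglion cells and 51.5% in Müller glia. An intron of 1229 bases of Srsf5 was kept in 0.816% of counts in amacrine cells and 3.58% in rods, and these counts are premature.

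Among the hnRNPs, Hnrnpu, a nuclear scaffold protein, had the largest ratio of all 40 genes. Hnrnpu was at 58.9 CPM in rods, 8.07 in cones, 5.79 in bipolar cells, 10.0 in amacrine cells, 7.98 in ganglion cells and 1.30 in Müller glia, 5.89-fold higher in rods than in amacrine cells. These levels count all isoforms. Unannotated isoforms held 40.8% of Hnrnpu counts, mostly in rods. Its annotated isoform held a smaller share of counts in rods than in amacrine cells, as given below. The ratio of rods to amacrine cells on that isoform alone is therefore lower than 5.89, and its size was not computed. Hnrnpl, which binds CA repeats, was at 12.4 CPM in rods, 4.38 in cones, 2.17 in bipolar cells, 2.26 in amacrine cells, 4.27 in ganglion cells and 6.20 in Müller glia, just 2-fold over the last, and 1.54-fold with median-of-ratios scaling. Hnrnpd, which binds AU-rich elements, was at 12.0 CPM in ganglion cells on 42 counts, 5.36 in rods, 4.52 in cones, 4.24 in bipolar cells, 5.55 in amacrine cells and 1.96 in Müller glia, a 2.15-fold ratio of ganglion to amacrine cells.

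Hnrnph3, the hnRNP with the most counts, was at 326 CPM in rods, 351 in cones, 321 in bipolar cells, 187 in amacrine cells, 86.3 in ganglion cells and 254 in Müller glia. Bipolar cells led for Hnrnpk, a poly(C)-binding protein, at 281 CPM against 90.3 to 230 in the other classes. They also led for Hnrnpa3 at 217 CPM against 68.4 to 118, and for Hnrnph1 at 121 CPM against 31.6 to 65.9. Hnrnpf, a G-tract binder like the Hnrnph proteins, was at 223 CPM in rods, 182 in cones, 165 in Müller glia, 134 in bipolar cells, 67 in ganglion cells and 48.7 in amacrine cells. Hnrnph2 was also highest in bipolar cells, with 71.0 CPM in rods, 53.8 in cones, 106 in bipolar cells, 51.8 in amacrine cells, 70.4 in ganglion cells and 52.3 in Müller glia. The remaining hnRNPs had a highest-to-second ratio of 1.06 to 1.99, and Hnrnpul2 had 0 counts in ganglion cells, where the limit of 3 counts is 0.855 CPM.

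Hnrnpa1, a well-studied repressor of exons, was at 155 CPM in rods, 119 in cones, 164 in bipolar cells, 176 in amacrine cells, 89.2 in ganglion cells and 125 in Müller glia. The classes differed in how its 3′ end was spliced. Isoforms with a last exon at chr15:103246545-103246692 have a junction 90 nt after the unchanged stop and held 65.7% of counts in rods, 67.5% in cones, 58.6% in bipolar cells, 16.4% in amacrine cells, 12.5% in ganglion cells and 53.4% in Müller glia. Amacrine and ganglion cells were low and the other 4 classes high, with no overlap of intervals between these groups. In one of them a 159-base exon was also skipped, in 49.4% of counts in rods, 56.5% in cones, 49.4% in bipolar cells, 10.9% in amacrine cells, 11.8% in ganglion cells and 29.5% in Müller glia. Hnrnpa2b1, its close relative, was at 16.7 CPM in rods, 16.3 in cones, 17.2 in bipolar cells, 5.62 in amacrine cells, 2.28 in ganglion cells and 22.2 in Müller glia. Its premature models likewise keep the reference stop. They held 69.6% of its counts in rods, 47.9% in cones, 49.5% in bipolar cells, 72.0% in amacrine cells and 53.7% in Müller glia, with only 8 counts in ganglion cells.

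Skipping of an exon made Hnrnph3 premature. Without the 139-base exon at chr10:63018760-63018898 the frame is lost, and such counts were 19.3% in rods, 17.6% in cones, 9.78% in bipolar cells, 14.9% in amacrine cells, 17.8% in ganglion cells and 9.37% in Müller glia. Bipolar cells and Müller glia lay below the other classes. Hnrnph1 lost its own 139-base exon in 0 to 5.74% of counts. In Hnrnph1 a 5′ splice site moved by 31 bases, together with loss of a 90-base exon, held 2.24% of counts in rods, 4.90% in cones, 6.97% in bipolar cells, 17.6% in amacrine cells, 42.1% of 159 counts in ganglion cells and 1.44% in Müller glia. In Hnrnph2 a 45-base exon (chrX:134602918-134602962) was in 32.0% of counts in rods, 23.7% in cones, 37.6% in bipolar cells, 78.9% in amacrine cells, 44.5% in ganglion cells and 42.7% in Müller glia.

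Smaller hnRNP genes gave further class differences. The 83-base poison exon of Hnrnpll, known for its part in lymphocyte splicing, was in 12.5% of counts in rods, 1.39% in bipolar cells and 13.2% in amacrine cells, and on few counts in 7.50% of 40 in cones, 25.6% of 39 in ganglion cells and 7.55% of 53 in Müller glia. The level of Hnrnpll was 10.7 CPM in rods, 5.47 in cones, 12.4 in bipolar cells, 14.7 in amacrine cells, 11.1 in ganglion cells and 8.64 in Müller glia. Hnrnpul1 had premature isoforms, all with a 5′ splice site moved by 107 bases, in 14.6% of counts in rods, 17.6% in bipolar cells, 19.0% in amacrine cells, 27.5% of 40 counts in cones and 36.1% of 36 in ganglion cells, with only 14 counts in Müller glia. Its level was 16.5 CPM in rods, 5.47 in cones, 5.10 in bipolar cells, 8.27 in amacrine cells, 10.3 in ganglion cells and 2.28 in Müller glia. Hnrnpd had premature isoforms in 7.07% of counts in rods, 1.63% in bipolar cells, 10.4% in amacrine cells, 0 of 33 counts in cones and 0 of 42 in ganglion cells, with only 12 counts in Müller glia. Hnrnpl held a 70-base poison exon in 9.59% of its modelled counts in rods and 14.5% in amacrine cells. Of the counts whose isoform spans that exon, 18.6% of 355 in rods, 2.27% of 44 in bipolar cells and 21.1% of 57 in amacrine cells held it, and fewer than 20 spanned it in the other 3 classes.

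Rods and cones shared the high side of an Hnrnpdl event. A 105-base exon, found in an isoform with the nonsense-mediated decay biotype, was in 66.6% of counts in rods, 60.4% in cones, 42.9% in bipolar cells, 28.2% in amacrine cells, 34.8% in ganglion cells and 50.7% in Müller glia. Neither Hnrnpdl model holds an annotated start codon, so none was called premature. An unannotated first exon of Hnrnpu, 262 bases long at chr1:178334285-178334546, began 39.5% of its counts in rods, 6.78% in cones, 1.19% in bipolar cells, 0.414% in amacrine cells and 0% of 28 counts in ganglion cells. Models with this first exon hold no annotated start codon of Hnrnpu. Its annotated isoform held 53.4% of 3267 counts in rods and 89.2% of 483 in amacrine cells.

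All 4 models of Hnrnpm, a repressor of exons near GU-rich sites, were called premature in every class, and this call rests on 8 bases. Its level was 52.2 CPM in rods, 28.5 in cones, 61.4 in bipolar cells, 10.2 in amacrine cells, 12.3 in ganglion cells and 37.2 in Müller glia. The models lack the 8-base exon at chr17:33669169-33669176 that all 4 annotated coding transcripts with a start codon hold. Over all genes, the models held 29 of 109 annotated internal exons of 1 to 9 bases (26.6%), 66.7% of those of 10 to 27 bases and 88% of those of 28 to 60 bases. Without Hnrnpm the premature share of all counts of these genes was 10.5% in rods, 9.76% in cones, 8.03% in bipolar cells, 10.4% in amacrine cells, 9.66% in ganglion cells and 7.58% in Müller glia.

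Among the U1- and U2-associated proteins, U2af1, the small subunit that reads the AG of the 3′ splice site, had the most counts and nearly the same level in 3 classes. It was at 623 CPM in rods, 379 in cones, 527 in bipolar cells, 631 in amacrine cells, 632 in ganglion cells and 447 in Müller glia. Amacrine cells, rods and ganglion cells had overlapping intervals. U2af2, the large subunit that binds the polypyrimidine tract, was at 17.2 CPM in rods, 14.1 in cones, 17.9 in bipolar cells, 13.8 in amacrine cells, 23.1 in ganglion cells and 21.5 in Müller glia. Luc7l, a U1-associated protein that sways the choice of 5′ splice site, was at 32.6 CPM in rods, 12.0 in cones, 12.5 in bipolar cells, 5.58 in amacrine cells, 5.70 in ganglion cells and 6.20 in Müller glia, a 2.61-fold ratio of rods to bipolar cells. Without its premature isoforms Luc7l was at 19.6 CPM in rods and 10.7 in bipolar cells, a 1.84-fold ratio. Rbm39, a splicing factor related to U2af2, was at 47.5 CPM in rods, 26.5 in cones, 37.8 in bipolar cells, 25.7 in amacrine cells, 14.0 in ganglion cells and 20.7 in Müller glia. Snrnp70, the U1 70-kDa protein, was lowest in rods, with 56.9 CPM there, 67.7 in cones, 122 in bipolar cells, 90.4 in amacrine cells, 101 in ganglion cells and 86.6 in Müller glia.

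U2af1 carries a pair of exons of equal length that replace each other. They are printed because the classes differed in which they used, with the bases that differ in capitals: the reference exon at chr17:31651646-31651712 and its partner at chr17:31652502-31652568 (GRCm38, minus strand, 67 bases each), identical at 44 of 67 positions (65.7%).
U2af1 reference exon: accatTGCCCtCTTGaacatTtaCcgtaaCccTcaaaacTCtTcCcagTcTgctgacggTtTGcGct
U2af1 partner exon: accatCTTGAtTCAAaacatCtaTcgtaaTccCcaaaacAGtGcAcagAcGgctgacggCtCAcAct

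The partner exon was used by 12.3% of U2af1 counts in rods, 13.8% in cones, 37.4% in bipolar cells, 27.8% in amacrine cells, 22.4% in ganglion cells and 25.8% in Müller glia. Rods and cones were low and bipolar cells high. Transcripts with both exons, or with neither, lose the frame: both were in 3.07% of counts in amacrine cells, 2.14% in rods and 4.33% in ganglion cells, and neither, with the exon of 88 bases kept, in 9.60% in amacrine cells, 1.44% in rods and 2.12% in ganglion cells. Another route skips that exon (chr17:31654979-31655066) as well as both of the pair. It was taken by 0.515% of counts in rods, 1.05% in cones, 0.975% in bipolar cells, 10.1% in amacrine cells, 17.4% in ganglion cells and 0.292% in Müller glia. Together, premature U2af1 isoforms held 22.7% of counts in amacrine cells and 23.9% in ganglion cells, and 2.26 to 5.96% in the other 4 classes. Leaving them out, rods had the highest level of U2af1, 598 CPM, against 495 CPM in bipolar cells, 488 in amacrine cells and 481 in ganglion cells.

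**Figure D3:**
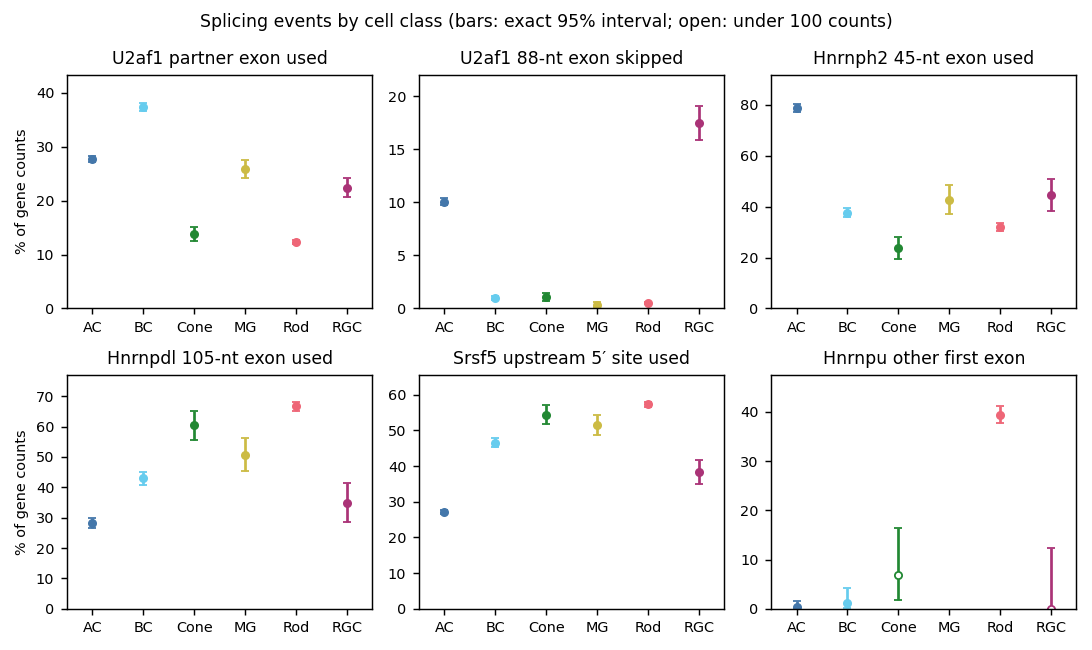
Share of counts with a splicing event (vertical axis, % of the counts of the gene) in the 6 classes for U2af1, Hnrnph2, Hnrnpdl, Srsf5 and Hnrnpu, with exact 95% intervals as bars, open points under 100 counts and no point under 20. Skipping of the U2af1 88-nt exon is at 10.1% and 17.4% in amacrine and ganglion cells and at 1.05% or less in the other classes.

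Rbm39, Snrnp70 and Luc7l all carry poison exons. Those of Rbm39 (chr2:156174097-156174168, minus strand) and Snrnp70 (chr7:45383125-45383184, minus strand) are printed with the stop in capitals, since their use is given next.
Rbm39: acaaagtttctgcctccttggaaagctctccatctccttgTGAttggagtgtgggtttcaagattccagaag
Snrnp70: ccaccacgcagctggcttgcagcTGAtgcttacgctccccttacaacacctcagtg

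Premature isoforms of Rbm39 held 23.3% of counts in rods, 28.4% in cones, 7.02% in bipolar cells, 20.7% in amacrine cells, 26.5% of 49 counts in ganglion cells and 5.51% in Müller glia. Bipolar cells and Müller glia were low, and the other 4 classes overlapped. The printed exon was in 17.5% of the counts whose isoform spans it in rods, 16.6% in cones, 5.48% in bipolar cells, 14.1% in amacrine cells, 0 of 49 in ganglion cells and 1.57% in Müller glia. A second poison exon, of 73 bases, was in 6.71% of such counts in rods, 13.8% in cones, 1.67% in bipolar cells, 6.62% in amacrine cells, 26.5% in ganglion cells and 3.94% in Müller glia. Premature isoforms of Snrnp70 held 14.3% in rods, 8.28% in cones, 5.46% in bipolar cells, 16.6% in amacrine cells, 8.50% in ganglion cells and 10.5% in Müller glia. All of them carry the printed exon, which was in 24.2% of the counts whose isoform spans it in rods, 15.2% in cones, 10.1% in bipolar cells, 21.7% in amacrine cells, 9.32% in ganglion cells and 15.7% in Müller glia. A short Snrnp70 isoform of 4 exons, which ends within the gene and has the retained-intron biotype in the annotation, held 40.7% of counts in rods, 45.7% in cones, 45.9% in bipolar cells, 23.5% in amacrine cells, 8.78% in ganglion cells and 33.0% in Müller glia. Luc7l had premature isoforms in 63.6% of counts in amacrine cells, 14.9% in bipolar cells and 39.9% in rods, and on fewer than 100 counts in 19.3% in cones, 50% in Müller glia and 95% in ganglion cells. Luc7l2 had only 202 counts over 14 isoforms. No modelled isoform of Luc7l3 was premature.

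The kinases Clk1 and Clk4 phosphorylate SR proteins and so release them from nuclear speckles. Clk1 was at 95.8 CPM in rods, 45.8 in cones, 64.0 in bipolar cells, 34.4 in amacrine cells, 7.98 in ganglion cells and 40.6 in Müller glia. Clk4 was at 43.1 CPM in rods, 31.6 in cones, 60.2 in bipolar cells, 33.3 in amacrine cells, 18.2 in ganglion cells and 42.6 in Müller glia. Both genes have a closely similar 91-base exon. These exons, printed with the differing bases in capitals, lie at chr1:58420121-58420211 (Clk1, minus strand) and chr11:51273078-51273168 (Clk4, plus strand) on GRCm38 and match at 85 of 91 positions (93.4%).
Clk1: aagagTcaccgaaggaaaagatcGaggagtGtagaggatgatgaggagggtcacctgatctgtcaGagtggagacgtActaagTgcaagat
Clk4: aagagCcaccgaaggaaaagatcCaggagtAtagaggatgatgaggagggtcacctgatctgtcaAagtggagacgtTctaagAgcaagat

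Premature isoforms held 77.3% of Clk1 counts in rods (interval 76.1 to 78.4%), 57.3% in cones, 19.4% in bipolar cells, 50.8% in amacrine cells, 92.9% of 28 counts in ganglion cells and 45.0% in Müller glia. The 91-base exon was skipped in 25.9% of counts in rods, 21.8% in cones, 6.35% in bipolar cells, 16.3% in amacrine cells, 67.9% in ganglion cells and 39.0% in Müller glia. The introns on both sides of it, 387 and 871 bases long, were kept together in 51.4% of counts in rods, 35.5% in cones, 13.1% in bipolar cells, 34.4% in amacrine cells, 25% in ganglion cells and 6.02% in Müller glia. Kept introns were the more common route in rods, cones, amacrine cells and bipolar cells, and skipping in Müller glia and, on 28 counts, ganglion cells. Most counts in bipolar cells took neither. The order of the classes turned with the isoforms counted. Over all isoforms Clk1 was 1.5-fold higher in rods than in bipolar cells, but the isoform without a premature stop was at 21.8 CPM in rods and 51.6 CPM in bipolar cells, 2.37-fold higher in the latter.

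**Figure D4:**
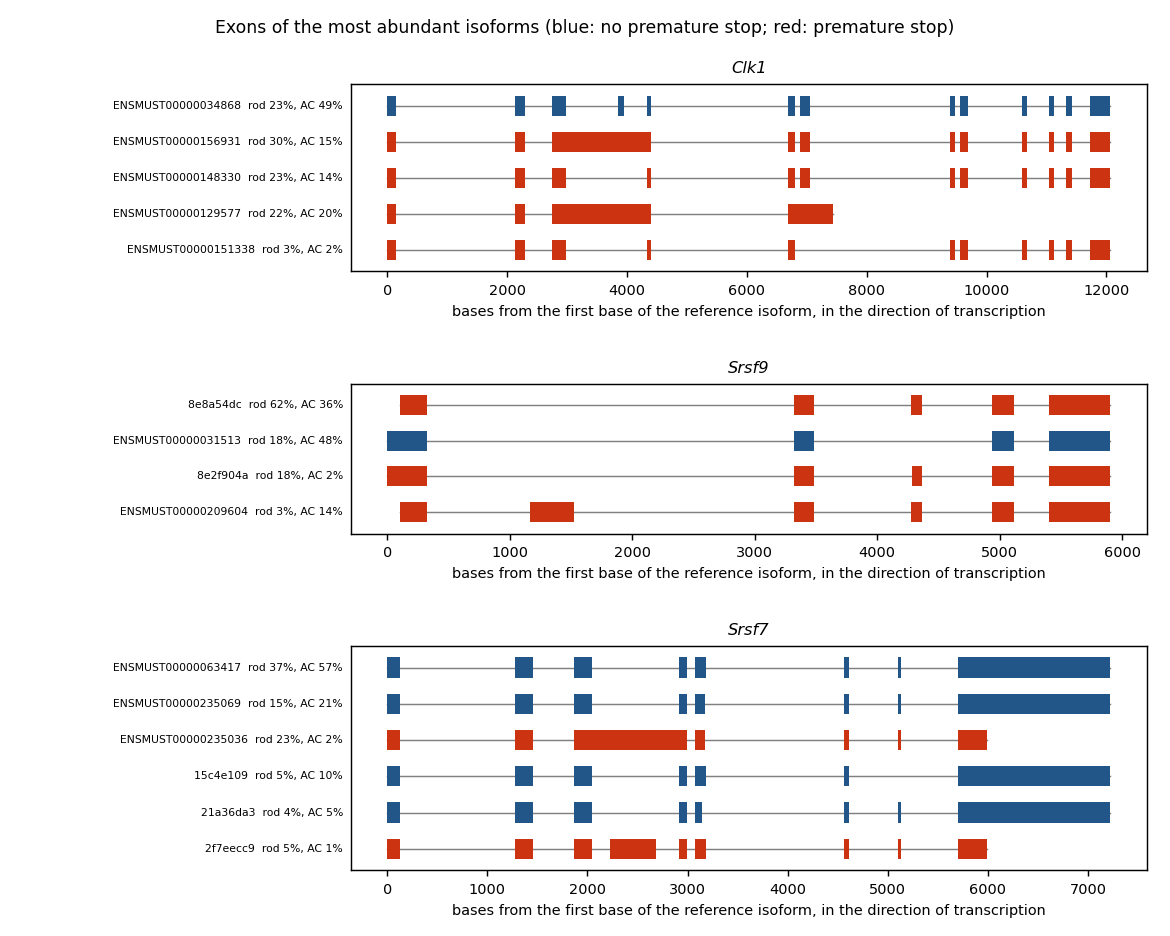
Exons (boxes, to scale) and introns (lines) of the most abundant Clk1, Srsf9 and Srsf7 isoforms, with the distance in bases from the first base of the reference isoform on the horizontal axis and the share of counts in rods and amacrine cells (AC) beside each name. Premature models are red: in Clk1 the kept introns form 1 long box where the reference has 3 exons, and in Srsf7 the poison exon lies within the stretch that the kept intron fills.

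Clk4 skipped its 91-base exon in 84.4% of counts in rods, 39.8% in cones, 21.1% in bipolar cells, 51.7% in amacrine cells, 45.3% of 64 counts in ganglion cells and 39.5% in Müller glia. Premature isoforms, which also include a poison exon of 59 bases and one of 67 bases, held 91.5% in rods, 59.3% in cones, 37.3% in bipolar cells, 80.6% in amacrine cells, 45.3% in ganglion cells and 39.1% in Müller glia. As with Clk1, rods were highest among classes with at least 100 counts, and bipolar cells were low, here with Müller glia. The Clk4 calls rest on the start codon of the full-length coding transcript, and with the start codon most annotated transcripts share, no Clk4 isoform was premature. The 59-base exon was in 63.6% of counts in rods and at most 41.6% elsewhere, and the 67-base exon in 52.2% in amacrine cells and at most 26.6% elsewhere.

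A kept intron was found in models of 8 of the 40 genes, against 8.79% of modelled genes, when any annotated intron counts. Neither this background nor that for coding introns below was limited to genes with 2 or more modelled isoforms and at least 100 counts. That limit raised the background for premature isoforms and poison exons. For Srsf5 and U2af2 this held for every model, since each spans an intron that only another transcript splices. For Srsf2 it held for 37.0% of 27 counts in rods, 31.7% of 120 in bipolar cells, 0 of 83 in amacrine cells and 14.7% of 34 in Müller glia, with under 20 counts in the other classes. For Luc7l it held for 13.2% of counts in rods, 9.09% of 88 in cones, 3.03% in bipolar cells, 4.46% in amacrine cells, 0 of 20 in ganglion cells and 0 of 38 in Müller glia. With introns between coding exons alone, 5 genes had such models, Clk1, Hnrnpab, Srsf1, Srsf5 and Srsf7, against 4.88%. These held 2.26% of the counts of all 40 genes in rods, 1.16% in cones, 0.561% in amacrine cells, 0.551% in bipolar cells, 0.451% in ganglion cells and 0.338% in Müller glia. Of the 5646 such counts in rods, 2730 were of Clk1 and most of the others of Srsf7. The same share over all genes was lowest in rods, at 1.32%, and highest in Müller glia, at 2.51%. The pooled order of the classes in the splicing factors was not that of all genes, but the high share in rods rests mainly on Clk1 and Srsf7. As a mean over genes with at least 100 counts in the class, the share over all genes took another order. It was then highest in rods, at 1.77%, and lowest in Müller glia, at 0.897%. A high share in rods and a low one in Müller glia are therefore not particular to the splicing factors.

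Pairs of classes were also set side by side for premature shares, over genes with such an isoform and at least 100 counts in both. Rods exceeded bipolar cells by at least 10 percentage points in 8 of 24 splicing-factor genes, against 17.8% of 1672 genes, and fell below them by as much in 0, against 5.32%. Amacrine cells exceeded bipolar cells in 9 of 24 (26.1% of all genes) and fell below in 3 (5.21%). Rods exceeded amacrine cells in 5 of 24 (13.1%) and fell below in 3 (21.8%). The genes higher in bipolar than in amacrine cells by that margin were Srsf7, Srsf9 and Hnrnpa1.

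A dominant switch was called when 2 classes with at least 20 counts of a gene had different leading isoforms and the share of 1 of them differed by at least 50 percentage points. It was found in 11 of 39 genes, against 25% of 7314 genes. With at least 100 counts in each class it was found in 7 of 36, against 10.3%: Srsf9, Srsf10, Hnrnpa1, Hnrnph2, Snrnp70, Clk1 and Clk4. The largest of these was Srsf9, whose isoform without the poison exon held 77.5% of counts in Müller glia and 4.95% in cones. Next was Clk1, whose reference isoform held 80.6% in bipolar cells and 22.7% in rods. Over the 36 genes the median of the largest difference between classes was 28.8 points, against 18.1 over all genes. In 18 of 39 genes (46.2%) the same isoform led in all classes with at least 20 counts, against 4350 of 7314 (59.5%) over all genes.

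**Figure D5:**
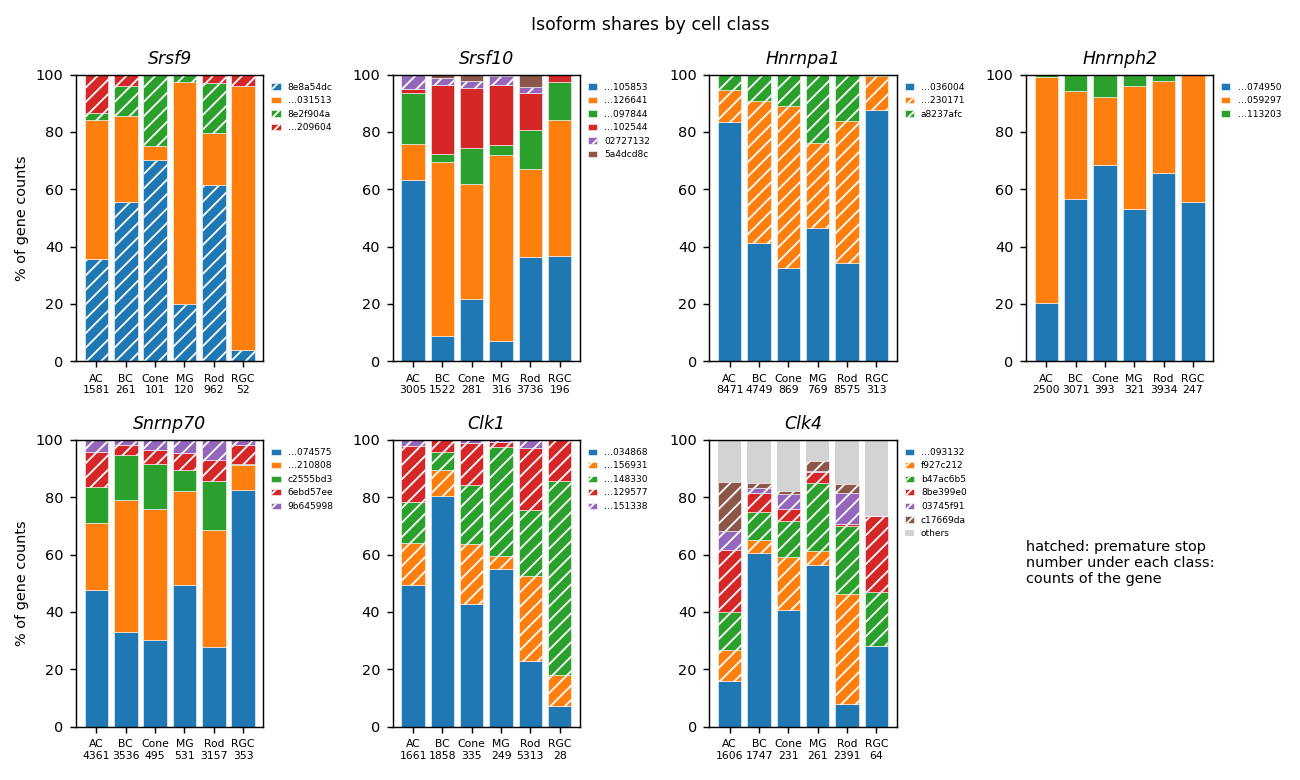
Share of each isoform (vertical axis, % of the counts of the gene, stacked) in the 6 classes for the 7 switched genes, with premature isoforms hatched and the counts of the gene below each class. In Clk1 the unhatched reference isoform fills 80.6% of the bar of bipolar cells and 22.7% of that of rods.

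Of the 190 isoforms, 86 (45.3%) were not in the annotation, against 60.3% of all isoforms, but they held 11.7% of the counts, against 5.58%. The splicing factors had a median of 4 isoforms per gene, against 3 for genes with at least 100 counts. Srsf1 and Hnrnpm had unannotated isoforms alone, and most counts of Clk4 (69.9%), Hnrnpl (61.6%), Luc7l2 (56.9%) and Srsf9 (54.0%) were in such isoforms.

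A list of 51 other splicing and decay genes was read in the same way for context. Of these, 45 had at least 100 counts. Rods were highest for 22 of the 45 (26.1% of all genes with at least 100 counts) and amacrine cells for 12 (19.6%). Bipolar cells were highest for 5 (13.9%), ganglion cells for 3 (15%), cones for 2 (8.29%) and Müller glia for 1 (17%). The median level of the 45 genes was 35.5 CPM in rods and 13.4 to 22.2 CPM in the other 5 classes. The highest class was 2-fold over the second in 4 of the 45, against 29.9% of all genes.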

How the data were processed

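The authors deposited whole-number counts per isoform for 6 retinal cell classes, pooled over the 4 libraries, and a file of transcript models with genome positions, in which FLAIR is the named source per the file headers. The build is mm10 per the submitters' processing notes. The aligner, collapse of molecular identifiers, doublets and cell typing are not given in the sources used here. The genes and lists were chosen with earlier results of these data known. Counts were summed per gene and divided by the column total (counts per 1000000, CPM) with Python 3.11.15, pandas 2.3.3 and scipy 1.17.1. The intervals are exact Poisson for levels and Clopper-Pearson for shares, at 95%. Whether the counts are reads or molecules is not stated, so no further count model was fitted. The intervals treat each count as independent and are too narrow if several counts come from the same molecule. TMM and median-of-ratios factors, computed from their formulas, served only as other scalings. Shares need at least 20 counts of the gene. Stops were read from exon bases of GENCODE M21 transcripts on GRCm38, used in place of a genome sequence, and exon sequences are printed from the same transcripts. All class values are given for genes with a 2-fold highest class, a switch at 100 counts or more, a premature or intron-keeping isoform of at least 10% in a class with 100 counts, or the most counts of their role. Some further splicing events were chosen after their values were seen. The switch rule and the stop calls were tested on simulated data.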

Additional observations from a re-analysis of the deposited data

How the results depend on the processing

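Rods stayed highest and ganglion cells lowest in summed level under every scaling tried. The ratio of rods to ganglion cells, 1.78, was 1.70 with TMM, 1.64 with the median of ratios, 1.72 with annotated isoforms alone and 1.59 without Srsf3. The 11 switched genes became 7 with at least 100 counts in each class and 19 with a difference of at least 25 points (38.4% of all genes). The 8 genes with a kept intron became 5 with introns between coding exons and 4 with introns of the reference isoform (3.17% of all genes), an alternative chosen after seeing the data. The 26 genes with a premature isoform ranged from 24, with stops other than that of the reference isoform (23.7% of all genes), to 29, with any stop before the last junction (28.5%) or with models that lack a start codon (28.9%). The unannotated share of isoforms, 45.3%, became 11.7% as a share of counts. Of 651 isoform shares, 198 left their full-depth counting interval when columns were thinned by a random draw to the smallest one. Fewer counts alone can move a share out of that interval, and the ganglion cell column was unchanged. The number therefore reflects depth and does not show a dependence on processing. No paired analysis was possible because each column pools all libraries, and leaving out a replicate was not possible for the same reason. Depth limits ganglion cells most, where 22 of the 40 genes had fewer than 100 counts.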
